A study of Rattus norvegicus with 4 samples.

Results

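Gene desert peaks are H3K27me3 peaks that lie between genes and far from any annotated transcription start site (TSS). They were chosen as the peaks whose detailed annotation was Intergenic and whose centre lay more than 200 kb from the nearest TSS, upstream or downstream. Such a peak can still lie close to the far end of a long gene. The rule found 10017 peaks of 129550 in all, or 7.73%. H3K27me3, the trimethylated form of lysine 27 on histone H3, was mapped in sciatic nerve. The animals were male Sprague Dawley rats of postnatal day 42. Their sciatic nerve was cut in one limb, and the nerve used here came from the contralateral limb, which had a sham operation with a skin incision alone, at 1 day after the transection. Chromatin was digested with micrococcal nuclease (MNase) and immunoprecipitated, giving 2 H3K27me3 libraries and 2 input libraries. The deposited list pools the H3K27me3 libraries and holds 1 width and 1 score per peak, so no spread between nerves can be given and the depth of each library is unknown. Whole nerve holds Schwann cells, fibroblasts, endothelial and immune cells, and a peak cannot be assigned to one of them. Values of the transected nerves were not analysed here.

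H3K27me3 is placed by the methyltransferase of Polycomb repressive complex PRC2, and it is known for covering the promoters of silent developmental genes, often as broad domains. Gene deserts are long stretches without protein-coding genes. Several are known as regulatory landscapes of developmental genes at their borders, among them the deserts beside Sox9 and on either side of the Hoxd cluster.

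To show what lies at the borders of well filled deserts, promoters of 4 border genes are printed from RefSeq on the newer assembly GRCr8, from 250 bases before to 50 after the start, with each CG dinucleotide in capitals. CG-rich promoters are a known feature of Polycomb targets. Gata3, a transcription factor of lymphocytes and several embryonic tissues (chr17:73553298-73553597, plus strand), carried a promoter peak of 11306 bp with a score of 749.6. Bcl11a, a zinc finger transcription factor (chr14:102231430-102231729, plus strand), carried one of 7656 bp with a score of 479.6. Prkacb, a catalytic subunit of protein kinase A (chr2:238386266-238386565, minus strand), and Mgmt, a DNA repair methyltransferase (chr1:201140582-201140881, plus strand), had no promoter peak, although 108 and 81 desert peaks were nearest to them.
Gata3: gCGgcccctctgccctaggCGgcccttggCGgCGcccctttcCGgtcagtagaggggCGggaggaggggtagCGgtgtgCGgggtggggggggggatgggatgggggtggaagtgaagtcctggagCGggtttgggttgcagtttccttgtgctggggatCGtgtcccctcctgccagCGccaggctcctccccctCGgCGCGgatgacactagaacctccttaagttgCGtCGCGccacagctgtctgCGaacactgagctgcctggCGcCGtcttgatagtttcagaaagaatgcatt
Bcl11a: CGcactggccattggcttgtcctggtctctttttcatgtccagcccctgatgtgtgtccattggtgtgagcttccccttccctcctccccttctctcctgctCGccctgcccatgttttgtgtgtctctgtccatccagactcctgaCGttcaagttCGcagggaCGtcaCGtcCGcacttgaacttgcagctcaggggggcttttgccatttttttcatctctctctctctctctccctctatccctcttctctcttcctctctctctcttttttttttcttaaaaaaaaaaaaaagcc
Prkacb: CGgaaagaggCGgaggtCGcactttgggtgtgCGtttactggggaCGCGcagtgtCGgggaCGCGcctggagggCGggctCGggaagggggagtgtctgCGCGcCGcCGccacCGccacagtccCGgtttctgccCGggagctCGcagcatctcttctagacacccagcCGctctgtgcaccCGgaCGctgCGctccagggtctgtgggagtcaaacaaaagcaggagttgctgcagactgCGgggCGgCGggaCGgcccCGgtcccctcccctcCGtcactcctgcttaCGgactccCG
Mgmt: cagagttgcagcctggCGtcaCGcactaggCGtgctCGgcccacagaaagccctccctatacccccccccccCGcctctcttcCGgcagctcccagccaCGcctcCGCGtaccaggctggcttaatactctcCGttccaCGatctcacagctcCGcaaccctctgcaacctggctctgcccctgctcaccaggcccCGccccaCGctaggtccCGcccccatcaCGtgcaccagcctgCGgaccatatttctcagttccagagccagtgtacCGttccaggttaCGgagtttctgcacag
The windows hold 20 CG dinucleotides at Gata3, 7 at Bcl11a, 31 at Prkacb and 19 at Mgmt. Of all 27457 RefSeq promoters of this length in the table, 44.14% hold 10 or more. Prkacb and Mgmt, without a promoter peak, thus hold more than Bcl11a, which has one. Mgmt holds fewer than Gata3, which also has one. These 4 windows were picked and follow GRCr8 starts, which need not be the rn5 starts used for the peaks.

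Gene desert peaks were mostly narrow and of low score. Their median width was 150 bp (quartiles 150 and 318 bp), and 51.91% were exactly 150 bp wide (95% Wilson interval 50.93 to 52.89%). This is both the smallest and the most common width in the list. The medians, counts, densities and clusters below thus rest in large part on peaks of the smallest width. The median was 190 bp for Intergenic peaks at 20 to 200 kb, 214 bp for those within 20 kb and 191 bp for all peaks. Peaks of exactly 150 bp made up 46.14% at 20 to 200 kb and 38.65% within 20 kb. Intervals on shares treat peaks, genes or deserts as independent and cover counting error only. Neighbouring peaks can share a domain, so the true uncertainty is larger.

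Broad peaks were rarer in the deserts than closer to genes. A width of at least 1000 bp was found for 678 gene desert peaks, or 6.77% (6.29 to 7.28%), against 10.9% of all peaks in the list. The share was 9.92% at 20 to 200 kb and 15.47% within 20 kb. At least 2000 bp were reached by 255 gene desert peaks, at least 5000 bp by 39 and at least 10000 bp by 5.

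**Figure D1:**
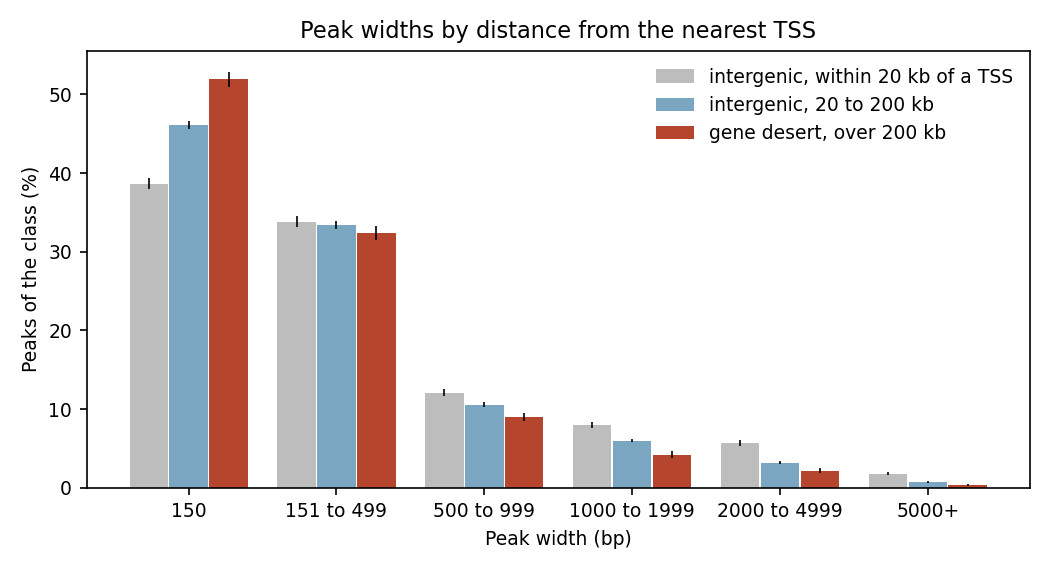
Share of peaks (%) in 6 width classes (bp) for Intergenic peaks within 20 kb of a TSS, at 20 to 200 kb and in gene deserts over 200 kb away, with 95% Wilson intervals as lines. The desert bar is the tallest at 150 bp, with 51.91%, and the shortest in each wider class.

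The score, a value per peak whose scale is not given in the sources used here, is used below to rank peaks within this list. The median score was 3.92 for gene desert peaks (quartiles 3.30 and 7.43, range 2.27 to 1087.3), 4.33 at 20 to 200 kb and 5.16 within 20 kb. Score and width went together, with Spearman's rho of 0.89 across the 10017 peaks, which are not independent. Among peaks of 150 bp the median score was 3.30 in each of the 3 distance groups, and the lowest score over all peaks was 1.86. Among peaks of 2000 bp to under 5000 bp it was 90.05 in deserts, 92.10 at 20 to 200 kb and 96.50 within 20 kb, and among those of 5000 bp or more it was 304, 321.9 and 417.5. Within the classes below 5000 bp the groups were thus close in score. The class of 5000 bp or more has no upper limit, so its widths are not equal between groups. Its widest peaks had 16581 bp in deserts, 25950 bp at 20 to 200 kb and 47092 bp within 20 kb. Its median scores per kb of width were 44.86, 47.42 and 50.25.

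The summed score was less concentrated in a few peaks than closer to genes. The 100 highest-scoring gene desert peaks, 1% of them, held 22.63% of their summed score. The top 1% held 27.02% at 20 to 200 kb, 33.29% within 20 kb and 29.63% over all peaks. All gene desert peaks together covered 3.783 Mb and held 4.74% of the summed score of the list, less than their 7.73% of its peaks. Of the 1295 peaks in the top 1% of the list by score, 40 (3.09%) were gene desert peaks, and the highest of them ranked 103 in the list.

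Peaks just on either side of the distance threshold had like values. The 629 gene desert peaks at 200 to 210 kb had a median width of 150 bp, a median score of 4.13 and 8.43% of at least 1000 bp. The 671 Intergenic peaks at 190 to 200 kb had 150 bp, 4.13 and 8.64%. Nearest to the threshold were a 150 bp peak 199960 bp from Tardbp, with a score of 3.30, and a 231 bp peak 200002 bp from Slc25a26, with a score of 4.33.

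The distance to the nearest TSS had a median of 308028 bp (quartiles 245041 and 436169 bp). Of the gene desert peaks, 4808 (48.00%) lay upstream of the nearest TSS and 5209 downstream. Beyond 1000 kb there were 314 peaks (3.13%), of which 12.42% (9.22 to 16.53%) were at least 1000 bp wide, against 5.42% (4.40 to 6.67%) at 500 to 1000 kb. The farthest peak, at chr2:93925663-93926759, lay 3431954 bp from Basp1, a growth cone protein gene, was 1096 bp wide and scored 29.5. Its desert runs from Cdh10, a cadherin gene, to Basp1 over 8.217 Mb and holds 21 gene desert peaks. In GRCr8 the cadherin genes Cdh12 and Cdh18, which no peak of the list names, lie between these border genes.

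The peaks fell into 815 deserts. A desert is here the interval between 2 neighbouring TSS of the list that holds at least 1 gene desert peak, and 13 deserts beyond the outermost TSS of a chromosome had 1 border. Such an interval can include the bodies of its border genes. A TSS enters the list only where some peak names it, so an interval can hold a TSS that no peak was nearest to. For 568 deserts the deposited distances show at least 99% of the interval to be free of any annotated TSS. These are called bracketed, and they held 8824 gene desert peaks (88.09%). A desert is bracketed only through peaks well inside it, so the choice tends to favour well filled deserts. Values of bracketed deserts need not hold for all deserts. The bracketed intervals had a median length of 0.739 Mb (quartiles 0.557 and 1.08 Mb, longest 8.217 Mb).

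Peaks were spread unevenly over the deserts. The median desert held 6 gene desert peaks (quartiles 2 and 14), 135 deserts held 1 and the fullest held 158. The fullest 82 deserts, 10% of them, held 46.54% of the peaks and 49.03% of their summed score. At least 1 peak of 1000 bp or more was found in 285 deserts (34.97%). Length did not set the number closely. Across bracketed deserts Spearman's rho between length and number was 0.42, and the 28 bracketed deserts over 2 Mb held 1 to 123 peaks with a median of 13.5. Counted over the part more than 200 kb from both borders, the median bracketed desert held 28.77 gene desert peaks per Mb (quartiles 10.62 and 62.80). Bracketed deserts are chosen partly through these peaks, so the density over all deserts may differ. The highest value, 347.7 per Mb in Ap3b1–Tbca, comes from 23 peaks in 0.0662 Mb.

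**Figure D2:**
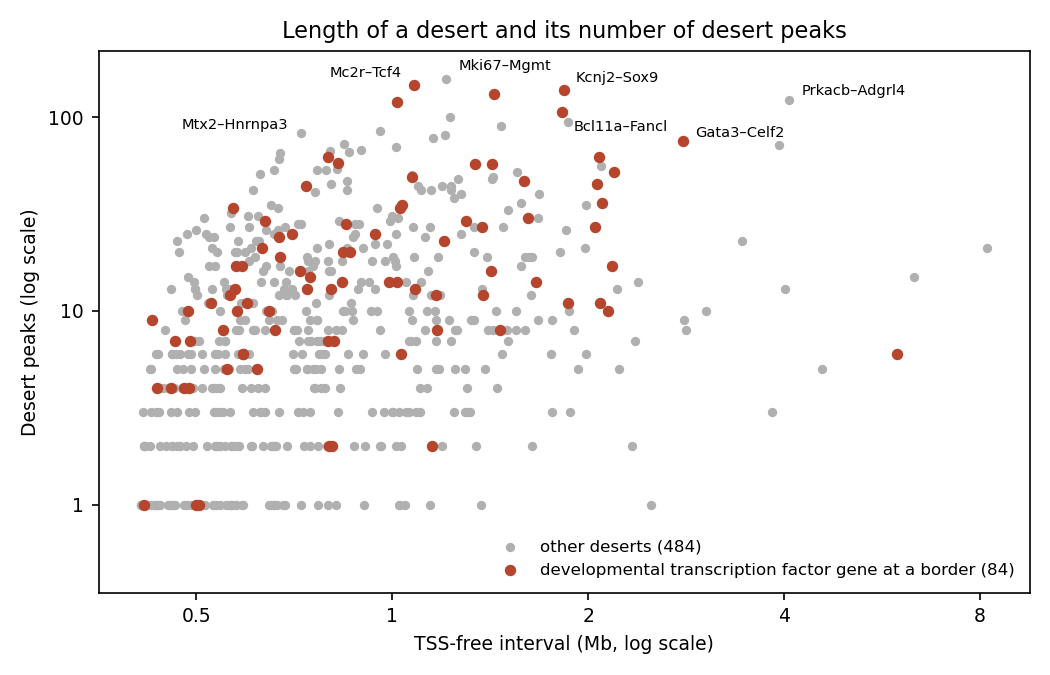
Number of gene desert peaks (log scale) against the length of the TSS-free interval (Mb, log scale) for the 568 bracketed deserts, with red points for the 84 that have a developmental transcription factor gene at a border. Deserts near 1 Mb range from 1 to over 100 peaks, and 5 of the 7 fullest points, among them Mc2r–Tcf4 and Kcnj2–Sox9, are red.

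Inside the bracketed deserts, peaks were fewer per Mb in the zones beyond 300 kb than nearer the borders. A desert was included where it held at least 1 peak beyond 200 kb, so densities on the 2 sides of 200 kb are not strictly comparable. Short deserts also add little area but at least 1 peak to the zone at 200 to 300 kb. This can raise its density against the zones farther out. Intergenic peaks numbered 56.73 per Mb within 20 kb of a TSS, 44.93 at 20 to 100 kb, 43.49 at 100 to 200 kb and 43.93 at 200 to 300 kb. They numbered 29.79 per Mb at 300 to 500 kb, 17.26 at 500 to 1000 kb and 7.996 beyond 1000 kb. Peaks of all annotations numbered 75.11 per Mb at 20 to 100 kb, 64.35 at 100 to 200 kb, 60.71 at 200 to 300 kb, 41.24 at 300 to 500 kb, 23.82 at 500 to 1000 kb and 9.516 beyond. Among the 4 zones beyond 200 kb, both series were lower the farther the zone lay from a TSS. How much of this follows from the choice of deserts was not tested. Peaks of at least 1000 bp went from 21.57 per Mb within 20 kb to 6.49, 4.60 and 3.82 in the next 3 zones, and to 2.42, 1.21 and 0.851 in the outer 3. The outer zones come from fewer and longer deserts, with 32.89 Mb beyond 1000 kb against 96.34 Mb at 200 to 300 kb.

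**Figure D3:**
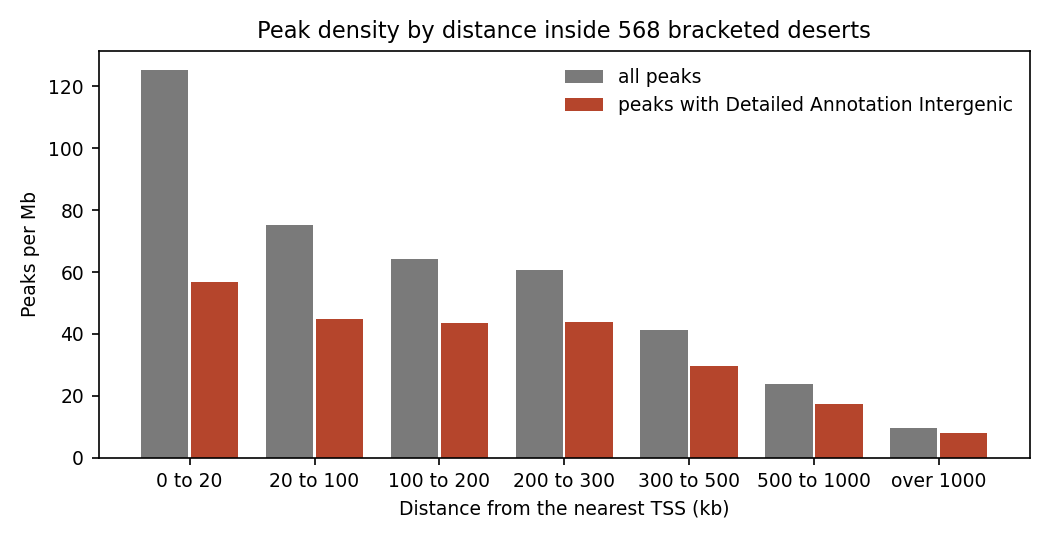
Peaks per Mb (y axis) by distance from the nearest TSS (kb, x axis) in the 568 bracketed deserts, for all peaks (grey) and those with a detailed annotation of Intergenic (red). The red bars go from 43.93 per Mb at 200 to 300 kb to 7.996 beyond 1000 kb, and the grey ones from 60.71 to 9.516.

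The fullest desert lies between Mki67, the gene of the proliferation marker Ki-67, and Mgmt on chromosome 1. It held 158 gene desert peaks in 1.209 Mb, 12 of them at least 1000 bp wide. Its broadest peak, at chr1:215294804-215306595, was 11791 bp wide with a score of 423.7 and lay 348218 bp from Mki67. Mki67 had a promoter peak of 1625 bp with a score of 42.1, and Mgmt had none. The broadest desert peak thus outscored the promoter peak at its border, and it ranked 8 by score among all gene desert peaks.

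Other full deserts end at transcription factor genes of development. Mc2r–Tcf4 held 146 peaks in 1.080 Mb, with a highest score of 79.2. Tcf4, a bHLH partner factor, had a promoter peak of 820 bp with a score of 18.8, and the melanocortin receptor gene Mc2r had none. Kcnj2–Sox9 held 138 in 1.834 Mb, with a highest score of 80.7. Sox9, which directs cartilage and neural crest fates, had a promoter peak of 1539 bp with a score of 105.8, while the potassium channel gene Kcnj2 had none. Both deserts thus held many peaks, none of them scoring above 80.7, and in both 1 border gene has a promoter peak.

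Tbx3–RGD1562310, with Med13l between its border genes in GRCr8, had 132 peaks. Its highest score was 204.4, at a peak nearest to RGD1562310. The highest score among those nearest to Tbx3, a T-box factor of limb and heart, was 71.8, against 75.9 at the Tbx3 promoter. Bcl11a–Fancl held 106 with a highest score of 142.1, below the 479.6 of the Bcl11a promoter. Gata3–Celf2 held 75 in 2.799 Mb with a highest score of 54, below the 749.6 at Gata3. At Tbx3, Bcl11a and Gata3 the promoter peak thus outscored the desert peaks nearest to the gene.

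Secreted factor, adhesion and enzyme genes border others of the 15 fullest. Aven–Grem1 held 78 peaks with a highest score of 48.1, and Grem1, a BMP antagonist, had a promoter peak of 8460 bp scoring 399.1. LOC500990–Cadm1 held 100 and Ets1–Kirrel3 held 94, with highest scores of 40.2 and 34.9. Cadm1 and Kirrel3 are immunoglobulin superfamily adhesion genes, with promoter peaks scoring 104.4 and 340.3, and the promoter peak of the transcription factor gene Ets1 scored 6.39. Prkacb–Adgrl4 held 123 in 4.075 Mb, 19 of them broad, and neither border gene had a promoter peak. Podxl–Chchd3 held 90, Hnrnpd–Prkg2 held 85 and Psmd7–Il34 held 81, with highest scores of 133.5, 161.1 and 423.1. In GRCr8, protein-coding genes that no peak names lie between the border genes of several of these deserts. Among them are Ryr3, Tmco5b and Fmn1 for Aven–Grem1 and Ttll7 for Prkacb–Adgrl4. Plxna4 is among them for Podxl–Chchd3 and Rasgef1b for Hnrnpd–Prkg2, while Ets1–Kirrel3 had none between. Together the 15 fullest deserts held 1609 gene desert peaks (16.06%), and all 15 were bracketed.

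The pair of deserts around the Hoxd cluster held many peaks as well. Hoxd genes encode homeobox factors that pattern limbs and trunk. Between Lnp and Mtx2, over 254.1 kb on chromosome 3, the list names 7 Hoxd genes and Mir10b. The desert on one side, Mtx2–Hnrnpa3, held 83 peaks in 0.723 Mb with a highest score of 232.1. The desert on the other side, Atp5g3–Lnp, held 61 in 0.670 Mb with a highest score of 375.2, from a 7866 bp peak at chr3:67691620-67699486. None of the 4 border genes had a promoter peak. The peaks assigned to Hoxd genes reached a score of 1253.1, above each peak of either desert.

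**Figure D4:**
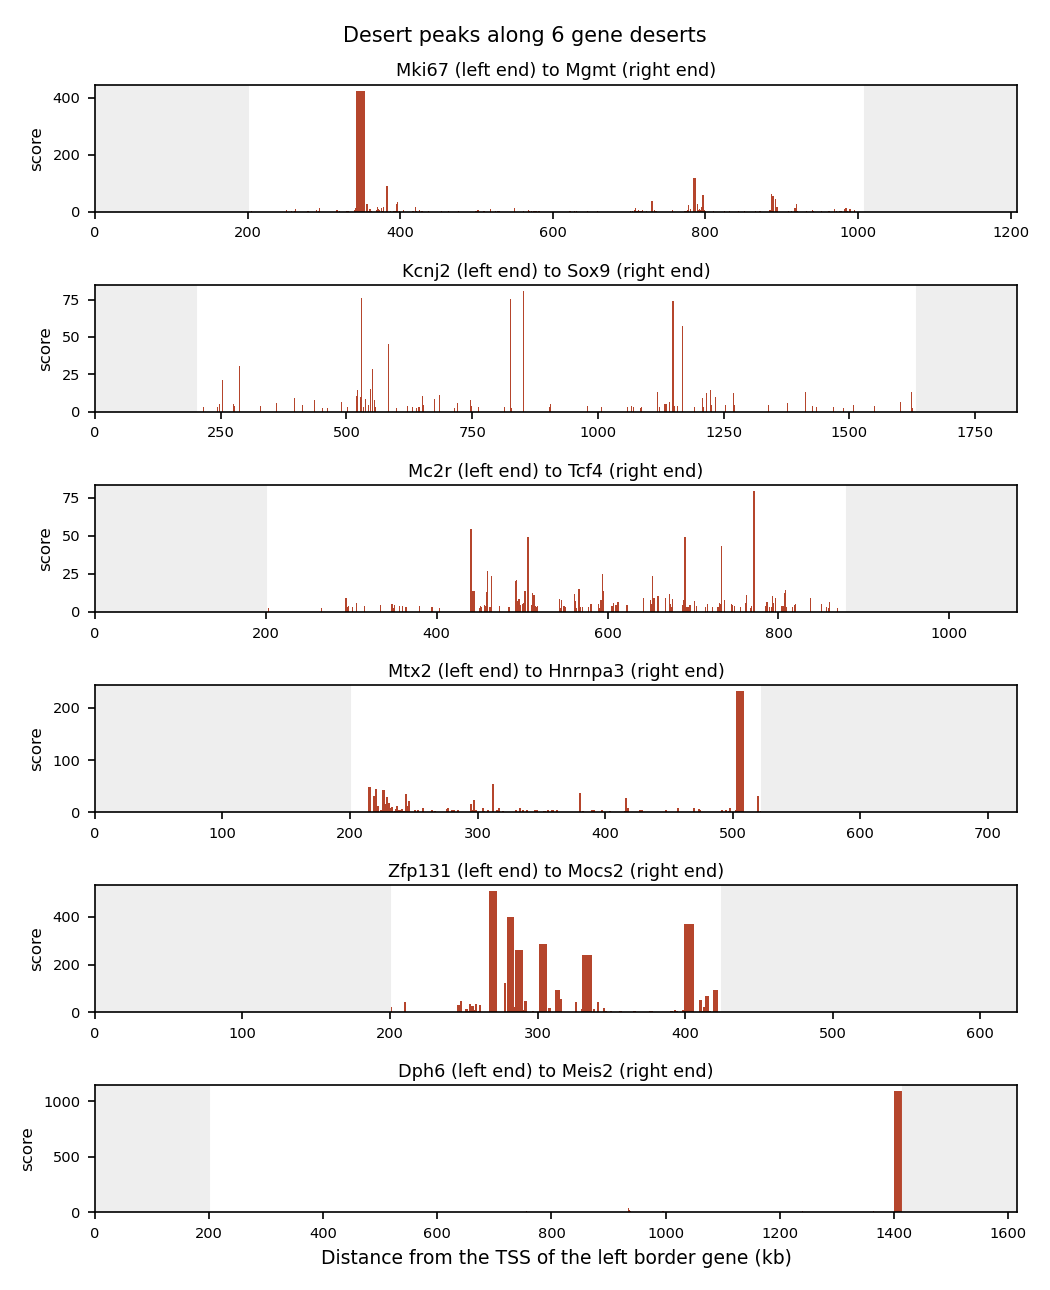
Score of each gene desert peak (y axis, scale differs between panels) along 6 deserts, against the distance from the left border TSS (kb), with the outer 200 kb, where no peak counts as a desert peak, in grey. Peaks narrower than 1500 bp are drawn at that width. The Kcnj2–Sox9 and Mc2r–Tcf4 panels show many peaks of like height, the Zfp131–Mocs2 panel a row of broad peaks and the Dph6–Meis2 panel a single one of 1087.3.

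The highest-scoring gene desert peaks were broad domains, and 8 of the top 10 lay in deserts with 18 to 51 gene desert peaks. The top one, at chr3:114109049-114125630, was 16581 bp wide with a score of 1087.3, 207585 bp from Meis2, a homeobox cofactor of Hox proteins. It exceeded the Meis2 promoter peak, which was 9221 bp wide with a score of 595.1. The second, at chr17:62316032-62328848, was 12816 bp wide, scored 785.7 and lay 400643 bp from Wac in the Mpp7–Wac desert. The third, at chr5:4339521-4351137, was 11616 bp wide, scored 632.6 and lay 410376 bp from Msc, a bHLH factor of muscle precursors. Its desert is Msc–Xkr9. In GRCr8 Eya1, a developmental transcriptional coactivator gene, lies between these border genes, and no peak of the list names Eya1.

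Next by score, apart from the domain near Mki67, came several beside genes that had no promoter peak. They lay near Zfp131 (507.8), Tbca (460.6), Crnkl1 (429.7), Cetn3 (429) and Il34 (423.1). In GRCr8 the genes Cfap61, Insm1, Ralgapa2 and Kiz lie between Crnkl1 and Xrn2, the borders of that desert. Other peaks among the 10 widest lay near Plcl1 (10006 bp, score 395.4), Tubgcp3 (8971 bp, 362.4), Pax3 (8542 bp, 296.2) and Hapln1 (7784 bp, 277.2). Pax3, a neural crest factor, had a promoter peak of 17912 bp with a score of 1471.1, and Tubgcp3 and Hapln1 had none. Broad desert domains thus stood both beside genes with strong promoter peaks and beside genes without one.

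The 39 gene desert peaks of at least 5000 bp lay in 31 deserts and scored 188.9 to 1087.3. The nearest gene had a promoter peak for 14 of them (35.90%, 22.74 to 51.58%), against 42.50% of all gene desert peaks. It was a gene of the developmental transcription factor list for 4 (10.26%, 4.06 to 23.58%), against 13.43% of all gene desert peaks. These 4 were nearest to Irx1, Irx5, Meis2 and Pax3. The list was set by symbol pattern and does not hold Msc or Trps1. Both genes are also nearest to peaks among the 39. With the list as set, neither share stood apart from that over all gene desert peaks by more than counting error. Zfp131–Mocs2 held 5 of the 39. Each of the 39 had another gene desert peak within 10 kb.

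Gene desert peaks came in clusters. Another gene desert peak lay within 10 kb for 8276 of them, or 82.62% (81.86 to 83.35%), against 87.3% for Intergenic peaks at 20 to 200 kb measured among themselves. The median gap between neighbours was 3601 bp, against 3016 bp at 20 to 200 kb. Clustering was thus somewhat looser in the deserts, where there are also fewer peaks per Mb. Joining peaks no more than 10 kb apart gave 3508 groups, of which 1741 were single peaks. The 559 groups of 5 or more held 50.84% of the gene desert peaks. Broad peaks were near another gene desert peak more often, in 95.58% (648 of 678, 93.75 to 96.88%), than those of 150 bp, in 76.19% (75.02 to 77.33%).

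The groups differed in how much of their length peaks covered. A group in Mtx2–Hnrnpa3 (chr3:68431030-68578270) held 59 peaks, and no group held more. It ran over 147.2 kb, of which 17.13% was covered, with a summed score of 608.5. The highest summed score, 2487.4, belonged to 33 peaks in Zfp131–Mocs2 (chr2:71140117-71260093), 14 of them at least 1000 bp wide, which covered 39.02% of 120.0 kb. The Meis2 domain formed a group of 2 peaks that covered 97.62% of 17.50 kb.

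The deserts were bordered by 1467 genes, 13.8% of the 10647 genes that the list names. Genes of some families were borders more often than that. Of 260 named developmental transcription factor genes, 86 were borders (33.08%, 27.64 to 39.01%). Of 128 cell adhesion and synapse organiser genes, 52 were (40.62%, 32.51 to 49.29%), and of 55 axon guidance genes 19 were (34.55%, 23.36 to 47.75%). Of 155 developmental ligand and receptor genes 39 were borders (25.16%), of 39 Schwann cell, myelin and nerve injury genes 13 (33.33%, 20.63 to 49.02%), and of 178 microRNA genes 34 (19.10%). The lists overlap, so the Schwann cell share is not separate from the others. Of those 13 genes, Pax3, Runx2, Pou3f1, Sox2 and Tfap2a are also in the transcription factor list. Ncam1 and Nrg1 are also in the adhesion list, and Gdnf and Bdnf in the ligand and receptor list. Ion channel and neurotransmitter receptor genes, with 49 of 275 (17.82%), and extracellular matrix genes, with 15 of 86 (17.44%), stood closer to the share over all genes. Chemosensory receptor genes stood below it, with 18 of 256 (7.03%, 4.49 to 10.84%).

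For bracketed deserts alone, some lists stood farther from the share over all genes than others. Of all named genes 9.94% bordered a bracketed desert, against 28.85% of developmental transcription factor genes, 25.64% of the Schwann cell list, 21.88% of adhesion genes and 18.18% of axon guidance genes. Ligand and receptor genes were at 16.77% (11.71 to 23.44%) and chemosensory genes at 5.08% (2.99 to 8.49%). MicroRNA genes, at 12.92% (8.77 to 18.64%), and ion channel and matrix genes, at 10.91% and 10.47%, were not apart from all genes by more than counting error. Developmental transcription factor genes were the nearest gene of 1345 gene desert peaks (13.43%), and they made up 5.86% of the border genes. The share of all peaks of the list that are nearest to such genes is not given here. The 13.43% thus need not be particular to deserts. The 84 bracketed deserts with such a gene at a border held a median of 14 gene desert peaks (quartiles 8 and 29.25), with a median highest score of 35.40. The other 484 held 7 (quartiles 3 and 17.25), with a median highest score of 13.10. The 84 were also longer, with a median of 0.833 Mb against 0.721 Mb, and held a median of 41.98 peaks per Mb against 26.49. A highest score can rise with the number of peaks, so it is not a separate difference. Peaks in the 84 were no broader, with 6.07% (5.15 to 7.15%) of at least 1000 bp against 6.95% (6.36 to 7.59%).

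The share of genes with a promoter peak was close to that over all genes. A promoter peak is a peak assigned to a gene that reaches within 1000 bp of its TSS. It was found for 566 border genes, or 38.58% (36.12 to 41.10%), near the 38.4% over all genes the list names. Where present, the promoter peaks of border genes were broader, with a median of 1978 bp and a score of 64.50, against 1252 bp and 38.20 for the other named genes. Within families the shares were 71 of 86 for developmental transcription factors, 37 of 52 for adhesion genes, 40 of 49 for ion channels, 30 of 39 for ligands and receptors and 16 of 19 for axon guidance genes. They were lower for matrix genes, at 7 of 15, and microRNA genes, at 9 of 34. Members of the same lists that border no desert had promoter peaks in 152 of 174 (87.36%, against 82.56% at borders) for transcription factors and 59 of 76 (77.63%, against 71.15%) for adhesion genes. They had them in 54 of 71 (76.06%, against 46.67%) for matrix genes and 23 of 36 (63.89%, against 84.21%) for axon guidance genes. High shares were thus found in these families away from desert borders as well. No promoter peak was found for the 18 chemosensory border genes, and a count of 0 of 18 allows up to 16.7%, against 24.79% of the 238 that border no desert.

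Named border genes of the Schwann cell, transcription factor and adhesion lists included genes with and without a promoter peak. Ncam1, an adhesion gene of immature Schwann cells, was nearest to 36 gene desert peaks and had a promoter peak scoring 105.4. Pmp22, a myelin protein gene, was nearest to 18 and had no promoter peak. Runx2, an osteoblast factor, was nearest to 11, with a promoter peak scoring 188.5. The melanocyte factor gene Mitf, nearest to 43, and the forkhead gene Foxp1, nearest to 16, are the ends of one desert and had no promoter peak. Border genes of the adhesion list also differed, with a promoter peak scoring 126.0 at Ntm, nearest to 37, and none at Tenm3 and Tenm4, nearest to 22 and 19.

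Among guidance and signalling genes, Efna5, Robo2, Rgma and Plxna2 had promoter peaks scoring 146.7, 123.6, 165.2 and 79.4 and were nearest to 10 to 12 gene desert peaks each. Nrp1 and Robo1, receptors of semaphorins and Slits, had none and were nearest to 4 and 3. Tgfb2, Bmp4 and Fgfr2, growth factor and receptor genes, were nearest to 22, 21 and 15, with promoter peaks scoring 109.7, 103.5 and 193.1. Tgfbr2 and Igf1r, receptor genes nearest to 10 and 9, had none. The potassium channel genes Kcnk1 and Kcnk9, nearest to 29 and 24, had promoter peaks scoring 129.5 and 42.3.

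Having a promoter peak at the border went with small differences in the deserts themselves. Bracketed deserts with a promoter peak at both borders (92) held a median of 32.76 gene desert peaks per Mb, those with 1 (255) held 30.98 and those with none (221) held 23.47. The quartiles of the 3 groups overlapped widely, at 11.55 to 91.08, 11.06 to 62.89 and 10.18 to 52.41 per Mb. Pooled over the deserts of each group, the densities were 27.95, 32.17 and 25.42 per Mb and did not follow the order of the medians. The share of broad peaks did not follow it either. It was 6.49% (5.36 to 7.83%), 5.99% (5.32 to 6.74%) and 7.93% (7.01 to 8.96%), highest with no promoter peak. In the 255 deserts with a promoter peak at 1 border, 2238 of 4306 gene desert peaks (51.97%, 50.48 to 53.46%) lay nearer that border, and 128 of 258 broad ones did. In the 78 with a developmental transcription factor gene at 1 border, 1053 of 2021 (52.10%, 49.92 to 54.27%) lay nearer it. Of the broad ones there, 52 of 119 did (43.70%, 35.12 to 52.67%). Gene desert peaks of all widths were thus split nearly evenly between the borders, while the broad ones are too few to place closely.

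In a newer annotation, genes lie between the border genes of many of these deserts. The gene order is that of GRCr8, and the rn5 intervals themselves were not searched. Border genes were matched to GRCr8 by identifier, and 701 deserts could be compared. Of these 462, or 65.9% (62.32 to 69.32%), had at least 1 protein-coding gene between their border genes. Among bracketed deserts it was 305 of 498, or 61.24% (56.90 to 65.42%), with 1 such gene in 159 of them. The bracketed deserts with none numbered 193, among them Mc2r–Tcf4, Kcnj2–Sox9, Bcl11a–Fancl, Mtx2–Hnrnpa3 and Gata3–Celf2. They held 3012 of 7554 gene desert peaks (39.87%). Of the 769 genes between the borders of bracketed deserts, no peak of the list names 637. The others are named by the list, so their TSS in rn5 can lie outside these intervals. The deposited distances show at least 99% of these intervals to be free of any TSS of the annotation used for the list.

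In 19 compared deserts, 12 of them bracketed, a developmental transcription factor gene that no peak names lies between the borders. In the 12 the median highest score was 95, with 63.83 gene desert peaks per Mb. It was 16.3 and 27.69 per Mb in 293 with other genes between, and 12.6 and 28.75 per Mb in 193 with none. The median number of gene desert peaks was 17, 8 and 7 in these groups, and a highest score can rise with that number. A peak of at least 1000 bp was present in 9 of the 12, in 41.30% of the 293 and in 38.34% of the 193. The highest scores were in Tubgcp3–Tex29, at 362.4, with the neural factor gene Sox1 between, and in Setsip–Bora, at 283.2, with Dach1. Others were Cmc1–Ctdspl with Eomes at 147.7, Gpr180–Abcc4 with Sox21 at 142.1 and C1ql2–Insig2 with En1 at 124.4. Low scores also occurred, at 10.3 in Foxc2–Fbxo31 with Foxl1 and 3.71 in Atg4c–Alg6 with Foxd3. Whether a peak lies at the promoter of such a gene was not tested, since the positions are on different assemblies.

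**Figure D5:**
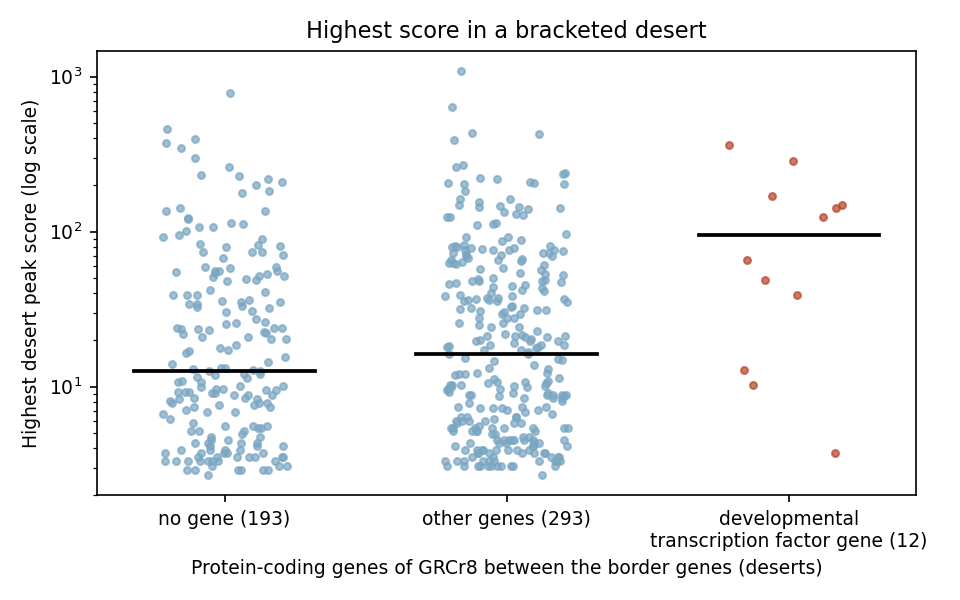
Highest gene desert peak score (log scale) in each bracketed desert, by the protein-coding genes of GRCr8 between its border genes, with black lines at the medians. The 12 deserts with a developmental transcription factor gene that no peak names have a median of 95, against 16.3 with other genes and 12.6 with none, and the 3 groups overlap.

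Chromosomes carried unequal numbers, from 114 on chromosome 20 to 1080 on chromosome 1 among the autosomes. Chromosome X held 80 gene desert peaks, 0.80% of them, and 0.86% of the Intergenic peaks at 20 to 200 kb. Of the 80, 12 were at least 1000 bp wide (15%, 8.79 to 24.41%), against 3.27 to 10.51% on the autosomes. The interval for X reaches below the highest autosomal share, and the share for other peaks on X is not given here.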

How the data were processed

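MNase ChIP of H3K27me3 and matching input were made from the sham-side sciatic nerve, with 2 libraries each. Per the submitters' processing notes the tools were CASAVA 1.8.2, Bowtie and HOMER. Per the file headers, HOMER annotated a combined list of H3K27me3 sham peaks against rn5. How peaks were called, whether input was subtracted and how the libraries were joined is not given in the sources used here. Each deposited peak has a score from the authors with no stated scale, and scores under 10 fall on whole steps of 0.206. Widths, positions and distances in bp were also deposited by the authors.

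Members were selected in Python 3.11.15 with pandas 2.3.3 and numpy 2.4.6. TSS positions were rebuilt from each peak's centre and signed distance (10074 TSS), and they give back the deposited distance for 10008 of 10017 gene desert peaks. The rebuilding was checked on simulated data. Deserts, promoter peaks (reach 1000 bp), clusters (gap 10 kb) and shares with 95% Wilson intervals were computed from these. With 1 pooled value per peak no test was possible, and all comparisons are descriptions. RefSeq GRCr8 tables gave names, neighbouring genes and promoter sequences. Border genes were compared there when on 1 chromosome and no farther apart than 2 times the rn5 interval. Not compared were 63 deserts with borders farther apart (Psmd7–Il34, Zfp131–Mocs2 and Cetn3–Ccnh among them), 20 with borders on different chromosomes, 17 with an unmatched border, 13 with 1 border and 1 with the same gene at both. A check of CG content over border genes was void, since 1117 of 1467 (76.14%) matched a promoter. No rn5 genome was used, so peak sequences are not shown.

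The members and the 9 gene lists were chosen with earlier results of these data known. The lists were set by symbol patterns, overlap in part and can miss or misplace genes. Msc is not in the transcription factor list, and Trps1 falls in the ion channel list by its symbol. Named genes were the borders of the 15 fullest deserts, those of the 10 highest-scoring and 10 widest peaks, that of the farthest peak and, per list, the 4 border genes with the most gene desert peaks and up to 2 without a promoter peak. The Hoxd genes, Irx1, Irx5 and genes between borders were added after their values were seen. Some genes that this rule selects are not reported here. Alternatives were other distance, annotation, score, width, gap and promoter limits, merging of peaks and leaving out the fullest desert.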

Additional observations from a re-analysis of the deposited data

How the results depend on the processing

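Of 54 alternative values, 27 stayed within 1.5 times the reported value, for counts, or within its 95% interval, for medians and shares. With repeats and CpG islands included the peaks numbered 13385. The deserts numbered 869 with them, 620 under a score limit and 568 where bracketed. The number of gene desert peaks was 20258 above 100 kb, 1863 above 500 kb, 4279 at or above the median score of all peaks and 4545 after merging peaks within 5000 bp, and the deserts numbered 1587 and 204 at those 2 distances. The median width and score were 378 bp and 8.46 under the score limit and 385 bp and 6.39 after merging. The share of at least 1000 bp was 7.69% above 100 kb, 6.07% with repeats and CpG islands included, 15.84% under the score limit and 41.58% after merging. It was 15.74% for a limit of 500 bp and 2.55% for 2000 bp. The share with a neighbour within 10 kb was 84.41% above 100 kb, 78.26% above 500 kb, 86.57% with repeats included and 76.96% under the score limit, and the share was 74.99% for a gap of 5 kb and 93.98% for 50 kb. The share of border genes with a promoter peak was 16.09% with no reach beyond the peak and 53.03% for a reach of 5000 bp. The share of deserts with a protein-coding gene between was 74.58% above 500 kb. Chosen after seeing the data, it was 56.92% without placeholder symbols and 61.24% in bracketed deserts. The changes with a limit follow from that limit, and causes of the others were not tested. No paired analysis was possible because the list pools the libraries, and for the same reason no library could be left out. The depth is unknown, so whether a region without a peak lacks the mark could not be judged.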

Other observations

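Beyond the rule, 4833 further peaks lay more than 200 kb from a TSS with another detailed annotation. Among them were 1195 in introns and 58 on CpG islands. The CpG island peaks were broader, with a median width of 641.5 bp and a median score of 23.20, against 150 bp and 3.92 for gene desert peaks. Peaks on LINE repeats (1078), LTR repeats (1016) and SINE repeats (785) had a median width of 150 bp and median scores of 3.71, 3.71 and 3.92.

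MicroRNA genes at desert borders included Mir350, nearest to 46 gene desert peaks, Mir466d, nearest to 20, Mir206, nearest to 17, and Mir551b, nearest to 14, and none of these 4 had a promoter peak. The odorant receptor genes Olr1645 and Olr1765 were nearest to 27 and 19. The matrix gene Col26a1, nearest to 30, had a promoter peak scoring 66.6, and Spock1, nearest to 5, had none.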
